A study of Mus musculus with 9 samples.

Results

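The receptors for type I and type III interferons and the STAT and IRF factors behind them were followed as 9 genes in organoids of mouse intestine. They were the receptor chains Ifnar1, Ifnar2, Ifnlr1 and Il10rb, the signal transducer Stat2, and the interferon regulatory factors Irf1, Irf2, Irf7 and Irf9. These genes were chosen by symbol, with earlier results of these data known. Each was matched to 1 Ensembl mouse identifier, and together they were 9 of the 54838 identifiers measured. RNA was sequenced in bulk from 7 libraries that fell into 4 groups. There were 2 libraries each of EtOH DMSO, 4-OHT DMSO and EtOH Nec-1, and 1 of 4-OHT Nec-1. All organoids had the genotype Vil-CreERT2;Mettl3fl/fl on the C57BL/6 background, from mice of 2 to 4 months. In this line the Villin promoter limits a Cre recombinase that tamoxifen activates to epithelial cells, where it removes the floxed part of Mettl3, the catalytic subunit of the main RNA adenosine methyltransferase. Organoids received the vehicle ethanol (EtOH) or 0.5 uM 4-hydroxytamoxifen (4-OHT) for 2 days, and DMSO or necrostatin-1 (Nec-1), an inhibitor of the kinase RIPK1, for 5 days. The sources used here give both 5 and 10 uM as the dose of Nec-1. No group without Cre received 4-OHT, so the agent and the deletion cannot be told apart.

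The values were FPKM, fragments scaled by transcript length and by the mapped fragments of the library, which are comparable between genes of different length. The sum of all FPKM in a library ranged from 450207 to 498712, and 11559 to 12038 genes reached 1 FPKM. The smallest steps between low values put the depth of the libraries at 0.853 to 1.03 times that of EtOH DMSO 1. Mettl3 itself stood at 2.7 and 2.71 FPKM in the EtOH DMSO libraries and at 2.41 and 2.47 FPKM with EtOH Nec-1. It stood at 3.72 and 4.14 FPKM with 4-OHT DMSO and at 3.36 FPKM with 4-OHT Nec-1. Its gene-level FPKM was thus not lower in any library labelled 4-OHT. Such a value does not separate the deleted part of the gene from the rest, so 4-OHT is used below as a label, and directions are those of the libraries so labelled.

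The tissue label was checked against marker genes. All 6 epithelial markers were above 1 FPKM, with Krt8 the most abundant and a summed level of 2368 to 3438 FPKM. Fibroblast markers summed to at most 0.137 FPKM and endothelial markers to at most 0.207 FPKM in any library. Of 15 leukocyte markers, 11 were below 0.1 FPKM in every library, Cd4, Itgax and Nkg7 were listed at 0 throughout, and Ptprc, the pan-leukocyte marker, reached at most 0.0497 FPKM. The summed leukocyte level was 2.81 and 3.33 FPKM in EtOH DMSO and 6.54 and 8.72 FPKM with 4-OHT DMSO. With Nec-1 it was 3.66 and 4.09 FPKM for EtOH and 7.80 FPKM for 4-OHT. The macrophage marker Cd68 was its most abundant gene by the mean over all libraries, though Itgam was higher in 3 of the 4 EtOH libraries.

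Type I interferons bind a receptor of the chains Ifnar1 and Ifnar2, while type III interferons (interferon lambda) bind Ifnlr1 paired with Il10rb, a chain shared with receptors of the interleukin-10 family. In gut epithelium the type III receptor carries much of the antiviral response. Both receptors use the kinases Jak1 and Tyk2 to activate STAT factors, of which Stat2 joins Irf9 in the complex ISGF3 that binds interferon-stimulated response elements (ISRE) in target genes. STAT pairs without Irf9 bind gamma-activated sites (GAS). Irf1 and Irf7 are transcription factors that interferon or infection induces, and Irf2 competes with Irf1 for the same sites.

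Promoter sequences were looked up because several of the genes moved together. RefSeq (build GRCm38.p6) gave 10 promoter windows for 8 of the 9 genes, each of 300 bases from 250 before to 50 after an annotated start; Il10rb had none. Both strands were searched for an ISRE core (GAAA, any 2 bases, GAAA), a GAS element (TTC, any 3 bases, GAA) and a kappa-B element. Of 32851 promoters of the same length, 3.44% held the ISRE core, 8.3% the GAS element and 8.46% the kappa-B element. Among the 10 windows, 2 held the ISRE core, 4 the GAS element and 2 the kappa-B element, and no matches of different motifs overlapped. The windows of Stat2 (chr10:128270248-128270547, plus strand), Irf1 (chr11:53769764-53770063, plus), Irf7 (chr7:141266375-141266674, minus), Irf9 (chr14:55603735-55604034, plus) and Irf2 (chr8:46739495-46739794, plus) are shown 5′ to 3′, as the 4 factors with the largest differences and 1 factor without a call. Capitals mark the matches.
Stat2: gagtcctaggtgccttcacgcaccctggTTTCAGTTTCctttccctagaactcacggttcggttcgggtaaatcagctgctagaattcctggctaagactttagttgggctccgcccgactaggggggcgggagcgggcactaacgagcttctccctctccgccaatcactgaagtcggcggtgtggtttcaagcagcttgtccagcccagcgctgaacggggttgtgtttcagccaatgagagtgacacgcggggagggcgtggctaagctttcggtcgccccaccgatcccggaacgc
Irf1: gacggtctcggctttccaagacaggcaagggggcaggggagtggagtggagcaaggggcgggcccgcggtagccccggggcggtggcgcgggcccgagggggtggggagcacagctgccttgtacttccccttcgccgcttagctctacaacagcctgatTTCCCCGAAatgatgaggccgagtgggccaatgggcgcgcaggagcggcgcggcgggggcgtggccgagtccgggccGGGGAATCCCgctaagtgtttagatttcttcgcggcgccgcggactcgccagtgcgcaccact
Irf2: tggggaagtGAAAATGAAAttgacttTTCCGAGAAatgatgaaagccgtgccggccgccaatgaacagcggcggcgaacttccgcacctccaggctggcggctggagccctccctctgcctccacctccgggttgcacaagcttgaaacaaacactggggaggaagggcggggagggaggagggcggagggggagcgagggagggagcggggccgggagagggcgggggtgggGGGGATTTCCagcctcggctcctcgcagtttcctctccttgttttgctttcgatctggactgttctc
Irf7: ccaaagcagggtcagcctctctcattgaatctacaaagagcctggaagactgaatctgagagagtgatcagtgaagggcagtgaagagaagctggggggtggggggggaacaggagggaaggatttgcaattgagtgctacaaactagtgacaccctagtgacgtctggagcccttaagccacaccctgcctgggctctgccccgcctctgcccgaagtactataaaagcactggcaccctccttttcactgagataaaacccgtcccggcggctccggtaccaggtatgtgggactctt
Irf9: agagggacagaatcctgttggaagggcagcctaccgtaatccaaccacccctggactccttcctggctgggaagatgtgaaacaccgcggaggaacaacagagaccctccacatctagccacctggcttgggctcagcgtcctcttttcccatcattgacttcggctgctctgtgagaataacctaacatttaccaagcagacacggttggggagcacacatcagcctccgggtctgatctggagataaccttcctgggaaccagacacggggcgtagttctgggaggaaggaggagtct
In Stat2 the ISRE core began at -222 from the annotated start. In Irf1 a GAS element began at -90 and a kappa-B element at -13. The Irf2 window held all 3 motifs, an ISRE core at -241, a GAS element at -224 and a kappa-B element at -17. The Irf7 and Irf9 windows shown, the second windows of Irf1 and Irf9, and the Ifnlr1 window had no match. Ifnar1 and Ifnar2 had 1 GAS element each. A match describes letters in this window and is not a site of binding.

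The receptor genes also share a position. Ifnar2, Il10rb, Ifnar1 and the interferon gamma receptor chain Ifngr2 lie within 191 kb of chromosome 16 (chr16:91372783-91564007), while Ifnlr1 lies on chromosome 4. RefSeq lists Gm36587 overlapping Ifnar2, Apof overlapping Stat2, and Gm31172 and Gm39170 overlapping Irf2, and reads of overlapping genes cannot be told apart here. The other 6 genes had no overlapping RefSeq gene.

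The question of the libraries labelled 4-OHT DMSO against EtOH DMSO was how these genes stand after 4-OHT without Nec-1. Irf7, Stat2, Irf1 and Irf9 were several-fold higher in the libraries labelled 4-OHT DMSO, the receptor chains Ifnar2 and Ifnlr1 were higher by less, and Ifnar1, Il10rb and Irf2 did not pass the test. So 6 of 9 genes were called higher and 0 lower at an adjusted p under 0.05 (limma on log2(FPKM + 1), Benjamini-Hochberg adjustment). Of all 12702 genes tested, 24.5% were called higher and 16.7% lower, 41.2% together. Since the 9 genes were chosen with earlier results of these data known, setting them beside these shares is a description and not a test. The median log2 fold change was 0.79 over the 9 genes and 0.08 over all genes tested. All 9 genes had at least 1 FPKM in each of the 7 libraries, so none passed the filter through 1 group alone. The calls over all genes were 3117 higher and 2120 lower. With each library centred on its median, the median over all genes moved by -0.16 to -0.08 and the calls became 2213 higher and 3187 lower. With upper quartiles made equal they were 2232 higher and 2976 lower. Under either scaling 5 of the 9 genes were called higher and 0 lower. The labels do not say whether the libraries of a group came from separate cultures or animals, so p-values measure only the spread between these libraries, which may be technical. Fold changes are on the log2(FPKM + 1) scale, which understates the change of low genes. In such bulk samples fewer cells of a type and less RNA per cell cannot be told apart.

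**Figure D1:**
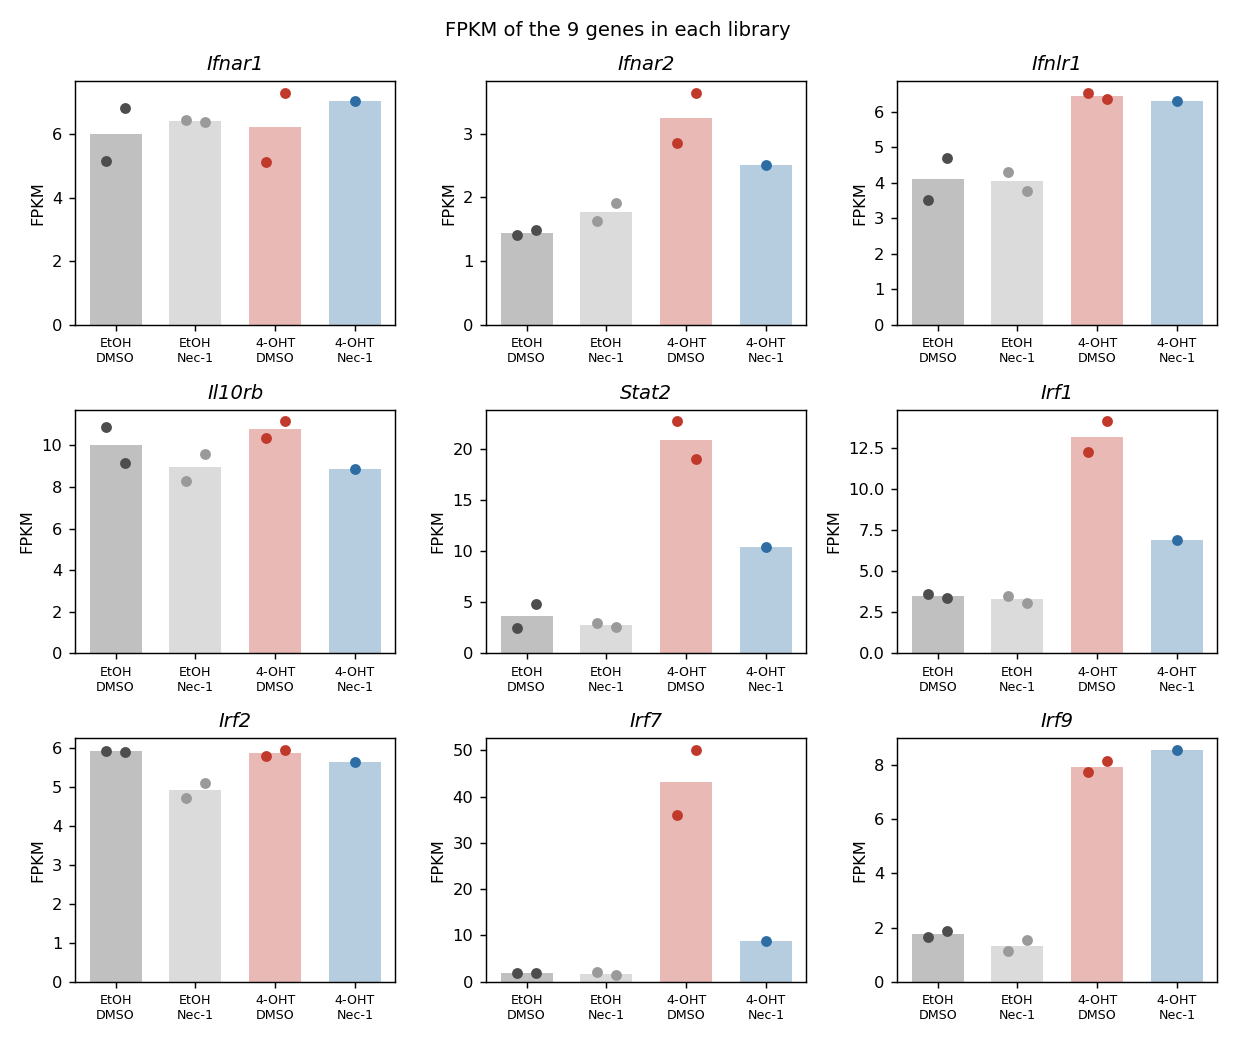
FPKM (vertical axes, linear, from 0) of each of the 9 genes in each library, by group. Points are libraries and bars are group means; the 4-OHT Nec-1 bar is 1 library. Irf7, Stat2, Irf1 and Irf9 stand higher in the libraries labelled 4-OHT, and Irf9 stays at 8.56 FPKM in the 4-OHT Nec-1 library while Irf7 stands at 8.74 against 36.0 and 50.2 in 4-OHT DMSO.

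Of the type I receptor, Ifnar1 (ENSMUSG00000022967) is the chain bound by Tyk2. It measured 5.17 and 6.83 FPKM in EtOH DMSO and 5.13 and 7.32 in the libraries labelled 4-OHT DMSO. The groups overlapped, with a low and a high library in each. Its log2 fold change was 0.04 (SE 0.19, 95% confidence interval -0.43 to 0.51, adjusted p = 0.886), and -0.12 with median centring. Ifnar2 (ENSMUSG00000022971), the chain bound by Jak1, measured 1.41 and 1.48 FPKM in EtOH DMSO and 2.86 and 3.65 in the libraries labelled 4-OHT DMSO. Both of these lay above both controls. The mean was 2.24 times that of EtOH DMSO, and the log2 fold change was 0.79 (SE 0.13, 95% confidence interval 0.45 to 1.13, adjusted p = 0.00801, higher in 2 of 2 libraries).

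Of the type III receptor, Ifnlr1 (ENSMUSG00000062157) is the chain that gives it its ligand specificity. It measured 3.51 and 4.71 FPKM in EtOH DMSO and 6.54 and 6.35 in the libraries labelled 4-OHT DMSO. The groups did not overlap, and the spread was wider among the controls. The log2 fold change was 0.55 (SE 0.14, 95% confidence interval 0.20 to 0.91, adjusted p = 0.0276). This call ended in 10 of 17 alternatives. Among the scalings, the adjusted p was 0.0527 with median centring and 0.0678 with equal upper quartiles. Leaving out single libraries gave an adjusted p of 0.0777 without EtOH DMSO 1, 0.0536 without EtOH Nec-1 1 or EtOH Nec-1 2, 0.0776 without 4-OHT DMSO 1 and 0.0665 without 4-OHT DMSO 2. Over all alternatives it ranged from 0.0203 to 0.0786. Il10rb (ENSMUSG00000022969), its partner chain, measured 10.9 and 9.16 FPKM in EtOH DMSO and 10.4 and 11.2 in the libraries labelled 4-OHT DMSO. The groups overlapped, and the log2 fold change was 0.10 (SE 0.12, 95% confidence interval -0.20 to 0.40, adjusted p = 0.549), or -0.06 with median centring.

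Stat2 (ENSMUSG00000040033), the ISGF3 subunit that carries its transactivation domain, measured 2.42 and 4.86 FPKM in EtOH DMSO and 22.7 and 19.0 in the libraries labelled 4-OHT DMSO. Both of the latter were several times the higher control, though the controls differed from each other by more than those of most other factors here. The mean was 5.73 times that of EtOH DMSO. The log2 fold change was 2.28 (SE 0.26, adjusted p = 0.00241), and it was 1.90 without EtOH DMSO 1 and 2.67 without EtOH DMSO 2. Its rank was 96 from the highest of the 12702 genes.

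Irf9 (ENSMUSG00000002325), the DNA-binding subunit of ISGF3, measured 1.66 and 1.85 FPKM in EtOH DMSO and 7.72 and 8.15 in the libraries labelled 4-OHT DMSO. Replicates lay close together and the groups were far apart. The mean was 4.51 times that of EtOH DMSO and the log2 fold change was 1.70 (SE 0.12, adjusted p = 0.00072). Irf7 (ENSMUSG00000025498), which amplifies type I interferon production, measured 1.85 and 1.86 FPKM in EtOH DMSO and 36.0 and 50.2 in the libraries labelled 4-OHT DMSO. The control libraries were nearly equal and both 4-OHT DMSO libraries far above them. The mean was 23.2 times that of EtOH DMSO, and the log2 fold change of 3.93 (SE 0.18, adjusted p = 0.000321) ranked 20 from the highest of all genes tested.

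Irf1 (ENSMUSG00000018899), an activator that also acts in the interferon gamma response, measured 3.61 and 3.37 FPKM in EtOH DMSO and 12.2 and 14.1 in the libraries labelled 4-OHT DMSO. The groups did not overlap. The mean was 3.77 times that of EtOH DMSO and the log2 fold change was 1.65 (SE 0.11, adjusted p = 0.000608). Irf2 (ENSMUSG00000031627), its competitor, measured 5.93 and 5.90 FPKM in EtOH DMSO and 5.81 and 5.96 in the libraries labelled 4-OHT DMSO. The groups overlapped within a narrow range. Its log2 fold change was -0.01 (SE 0.09, 95% confidence interval -0.22 to 0.21, adjusted p = 0.96). With median centring it was -0.16. Relative to the median of all genes, Ifnar1, Il10rb and Irf2 lay at -0.04, 0.02 and -0.08.

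Markers of secretory cells moved with the same libraries. All 5 Paneth cell markers were above 1 FPKM, with Defa24 the most abundant, and summed to 7651 and 6965 FPKM in EtOH DMSO and to 18125 and 18629 with 4-OHT DMSO. With Nec-1 the sums were 8310 and 8133 FPKM for EtOH and 13769.9 for 4-OHT. The 4 goblet cell markers, led by Tff3, summed to 1286 and 1177 FPKM in EtOH DMSO and to 1775 and 1959 with 4-OHT DMSO, and under Nec-1 to 1335 and 1313 FPKM for EtOH and 1547 for 4-OHT. The 3 enteroendocrine markers, led by Chgb, summed to 152 and 163, 299 and 358, 169 and 181, and 345 FPKM in the same order of groups. The 4 crypt stem cell markers, led by Olfm4, summed to 40.4 and 36.8, 22.4 and 15.4, 27.5 and 25.6, and 7.63 FPKM in that order. The 6 enterocyte markers, led by Fabp1, summed to 1321 and 1246 FPKM in EtOH DMSO and to 994 and 1046 with 4-OHT DMSO, and under Nec-1 to 989.8 and 988.5 FPKM for EtOH and 1165 for 4-OHT. Among them Alpi measured 76.0 and 78.1 FPKM in EtOH DMSO and 22.3 and 30.3 with 4-OHT DMSO, while Apoa1 measured 199 and 183 against 293 and 291 FPKM. The 3 tuft cell markers, led by Dclk1, summed to 1.95 and 2.28 FPKM in EtOH DMSO and 1.71 and 1.46 with 4-OHT DMSO, and under Nec-1 to 2.46 and 2.27 for EtOH and 1.84 for 4-OHT. Compared with EtOH DMSO, both libraries labelled 4-OHT DMSO had higher Paneth, goblet, enteroendocrine and leukocyte sums and lower stem cell, enterocyte and tuft cell sums. Of the 2 leukocyte markers that reached 1 FPKM, Cd68 measured 0.774 and 2.01 FPKM in EtOH DMSO and 5.69 and 7.72 with 4-OHT DMSO, while Itgam measured 1.96 and 1.19 against 0.315 and 0.917 FPKM, the other way. Their part in the differences of the 9 genes was not tested.

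**Figure D2:**
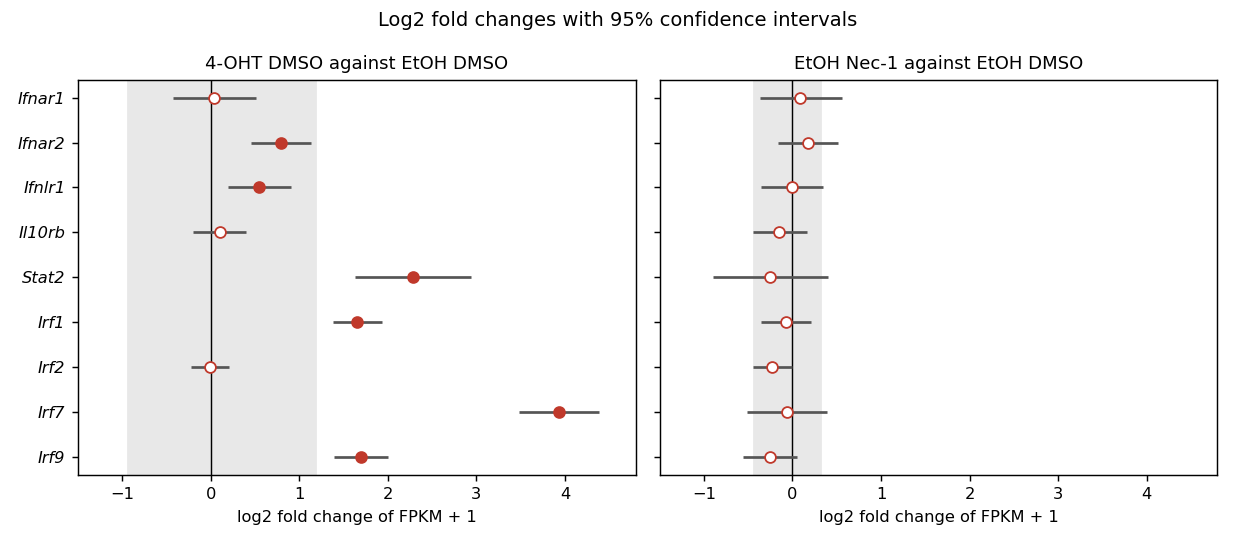
Log2 fold change of FPKM + 1 (horizontal axes) of the 9 genes for 4-OHT DMSO against EtOH DMSO and for EtOH Nec-1 against EtOH DMSO. Circles are estimates, filled where the adjusted p was under 0.05, lines are 95% confidence intervals, and the grey band runs from the 5th to the 95th percentile of all 12702 genes. In 4-OHT DMSO, Irf7 (3.93), Stat2 (2.28), Irf9 (1.70) and Irf1 (1.65) lie beyond the band, which ends at 1.19; no circle is filled for EtOH Nec-1.

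EtOH Nec-1 against EtOH DMSO asks what Nec-1 does in organoids that received the vehicle. None of the 9 genes was called in limma, the lowest adjusted p being 0.367, and 1 of them, Irf2, had an unadjusted p under 0.05. Over all genes tested, 22 were higher and 6 lower, 0.22% together, and 1689 had an unadjusted p under 0.05. This count of 28 was 13 without EtOH DMSO 1, 14 without EtOH DMSO 2, 11 without EtOH Nec-1 1, 9 without EtOH Nec-1 2 and 75 without either 4-OHT DMSO library. The median log2 fold change was -0.07 over the 9 genes and -0.09 over all genes. This comparison shares its EtOH DMSO libraries with the comparison above.

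Irf2 measured 4.72 and 5.11 FPKM in EtOH Nec-1, both below both EtOH DMSO libraries. Its log2 fold change was -0.23 (SE 0.09, 95% confidence interval -0.44 to -0.01, adjusted p = 0.367). Irf9 measured 1.12 and 1.52 FPKM, again below both controls, with a log2 fold change of -0.25 (SE 0.12, 95% confidence interval -0.56 to 0.05, adjusted p = 0.443). Ifnar2 measured 1.63 and 1.92 FPKM, above both controls, with a log2 fold change of 0.18 (SE 0.13, 95% confidence interval -0.16 to 0.52, adjusted p = 0.608). The groups of the other 6 genes overlapped. Irf7 stood at 2.00 and 1.5 FPKM, Stat2 at 2.95 and 2.59 and Irf1 at 3.48 and 3.07. Their levels with Nec-1 thus lay near those without it, and their confidence intervals reached from -0.51 to 0.39, from -0.90 to 0.40 and from -0.35 to 0.21. Ifnar1 stood at 6.45 and 6.39 FPKM, Ifnlr1 at 4.32 and 3.77 and Il10rb at 8.30 and 9.60.

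The 4-OHT Nec-1 group had 1 library, so its comparisons have no replicate check and no test. Set against the 2 libraries labelled 4-OHT DMSO, it asks where the genes stand when Nec-1 is present. Irf7, Stat2 and Irf1 were lower in the 4-OHT Nec-1 library than in both 4-OHT DMSO libraries, while Irf9 was slightly above both. In all, 7 of 9 genes lay below both libraries and 1 above both, with Ifnar1 between them. Of the 12036 genes whose mean over these 3 libraries reached 1 FPKM, 50.6% lay below both and 24.5% above both. Irf7 was 1 of 146 genes (1.21%) at least 1 log2 unit below both, and none of the 9 was among the 92 (0.764%) at least that far above. These 238 genes became 772 without 4-OHT DMSO 1 and 421 without 4-OHT DMSO 2, and in the latter case Stat2, at -1.06, was also past 1 log2 unit. The median log2 difference was -0.25 over the 9 genes and -0.09 over all genes. With each library centred on its median, 5 of the 9 genes lay below both and 4 above both, beside 32.4% and 41.3% of all genes so centred.

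Irf7 measured 8.74 FPKM in the 4-OHT Nec-1 library, and the 4-OHT DMSO mean was 4.93 times as high. Its log2 difference was -2.16 from that mean, -1.92 from library 1 and -2.39 from library 2. Stat2 measured 10.4 FPKM, with a log2 difference of -0.93, at -1.06 and -0.81 from the 2 libraries. Irf1 measured 6.89 FPKM, with a log2 difference of -0.84, at -0.74 and -0.94. These 3 factors lay between the EtOH and the 4-OHT DMSO libraries. Irf9 measured 8.56 FPKM against 7.72 and 8.15, a log2 difference of 0.10. Of the 4 factors called above with a fold over 3, Irf9 was thus the one not lower in this library.

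The receptor chains differed by less than Irf7, Stat2 and Irf1, but not all by less than Irf9. Ifnar2 measured 2.51 FPKM, between the EtOH and the 4-OHT DMSO libraries, with a log2 difference of -0.27. Il10rb measured 8.87 FPKM, below both, with a difference of -0.25. Ifnlr1 measured 6.30 FPKM, 0.03 log2 units below the 4-OHT DMSO mean as written and 0.09 above it with median centring. Ifnar1 measured 7.05 FPKM and Irf2 5.64 FPKM, with differences of 0.17 and -0.05, that of Irf2 becoming 0.06 with median centring. This comparison shares its 4-OHT DMSO libraries with the first.

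The 4-OHT Nec-1 library against the 2 EtOH Nec-1 libraries asks what difference between 4-OHT and EtOH is present under Nec-1. Against the EtOH Nec-1 mean, Irf9 had the largest log2 difference of the 9 genes, at 2.05, being 6.48 times that mean. Irf7 followed at 1.83 and 4.99 times, Stat2 at 1.60 and 3.76 times, and Irf1 at 0.88 and 2.1 times. By library the order of Irf9 and Irf7 turned, at 2.17 and 1.70 from EtOH Nec-1 1 but 1.92 and 1.96 from EtOH Nec-1 2. Of the receptor chains, Ifnlr1 was at 0.54, Ifnar2 at 0.34 and Ifnar1 at 0.12, the last becoming -0.02 with median centring. Il10rb was between the libraries at -0.01, and Irf2 was at 0.17. In all, 8 of 9 genes lay above both libraries and 0 below both, or 6 and 2 with median centring. Of 11746 genes compared, 49.9% lay above both and 38.8% below both, or 38.9% and 49.8% with median centring. Irf9, Irf7 and Stat2 were among the 498 genes (4.24%) at least 1 log2 unit above both, and none was among the 228 (1.94%) at least that far below. The median log2 difference was 0.54 over the 9 genes and 0.07 over all genes.

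Side by side, the log2 differences between 4-OHT and EtOH were 3.93 without Nec-1 and 1.83 with it for Irf7. For Stat2 they were 2.28 and 1.60, for Irf1 1.65 and 0.88, and for Irf9 1.70 and 2.05. Irf9 was the 1 of these 4 with the larger value under Nec-1. Its EtOH Nec-1 libraries stood low, at 1.12 and 1.52 FPKM, against 1.66 and 1.85 FPKM in EtOH DMSO. That log2 fold change, -0.25, was not called. Its 4-OHT Nec-1 library was 0.10 log2 units above the 4-OHT DMSO mean. Whether the differences between 4-OHT and EtOH themselves differ with and without Nec-1 was not tested.

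**Figure D3:**
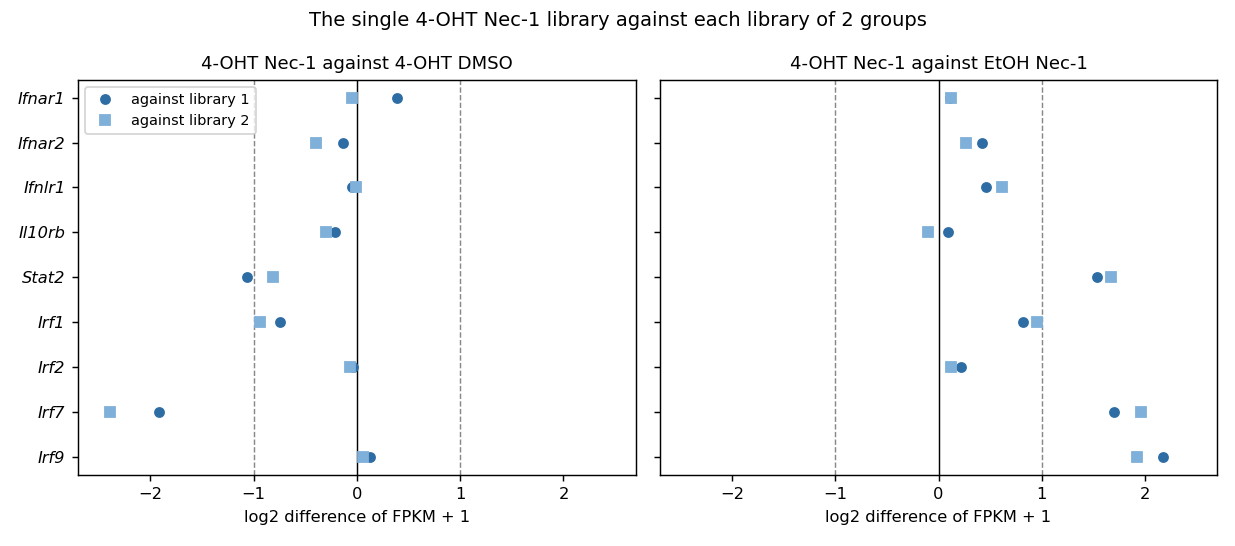
Log2 difference of FPKM + 1 (horizontal axes) of the single 4-OHT Nec-1 library from each of the 2 libraries of 4-OHT DMSO (left) and of EtOH Nec-1 (right), for the 9 genes. Circles are differences from library 1, squares from library 2, and dashed lines mark 1 log2 unit either way. On the left Irf7 lies at -1.92 and -2.39 and Irf9 at 0.13 and 0.06. On the right Irf9 lies at 2.17 and 1.92 and Irf7 at 1.70 and 1.96.

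Compared as FPKM, the order of the genes differed between groups. In EtOH DMSO, Il10rb was highest at 10.03 ± 1.23 FPKM (SD, n = 2), followed by Ifnar1 (6.00 ± 1.18), Irf2 (5.92 ± 0.0259), Ifnlr1 (4.11 ± 0.848), Stat2 (3.64 ± 1.72), Irf1 (3.49 ± 0.163), Irf7 (1.86 ± 0.00175), Irf9 (1.76 ± 0.135) and Ifnar2 (1.45 ± 0.0493). Neighbours whose libraries overlapped were Ifnar1 and Irf2, Ifnlr1 and Stat2, and Stat2 and Irf1. In the libraries labelled 4-OHT DMSO, Irf7 was highest at 43.1 ± 10.03 FPKM (SD, n = 2), followed by Stat2 (20.9 ± 2.60), Irf1 (13.2 ± 1.35), Il10rb (10.8 ± 0.561), Irf9 (7.94 ± 0.300), Ifnlr1 (6.45 ± 0.133), Ifnar1 (6.22 ± 1.54), Irf2 (5.89 ± 0.109) and Ifnar2 (3.25 ± 0.560). Ifnlr1 overlapped with Ifnar1 and Ifnar1 with Irf2. Irf7 thus went from place 7 to place 1, while Ifnar2, the lowest of the receptor chains, was at place 9 in both. In EtOH Nec-1 the order began with Il10rb, Ifnar1 and Irf2 and ended with Ifnar2, Irf7 and Irf9, whose libraries overlapped in turn. In the 4-OHT Nec-1 library Stat2 led at 10.4 FPKM, and Il10rb (8.87), Irf7 (8.74) and Irf9 (8.56) followed.

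The rest of the pathway was read from lists, of which up to 4 genes with the highest mean FPKM are named. Of 21 interferon ligand genes, 16 were listed at 0 in all 7 libraries, among them Ifnb1, Ifnl2 and Ifnl3, and the other 5 reached at most 0.178 FPKM. None met the filter of 1 FPKM in 2 libraries. The highest means were those of Ifnz (0.0401 FPKM), Ifnk (0.0384), Ifne (0.0292) and Ifna2 (0.00747). Ligand transcripts were thus near or at 0 in libraries labelled 4-OHT and in EtOH libraries alike.

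Of 6 receptor chains of related cytokines, 3 were tested in the libraries labelled 4-OHT DMSO against EtOH DMSO, and 2 were called higher and 1 lower, beside 24.5% and 16.7% over all genes. Ifngr1, the ligand-binding chain for interferon gamma, measured 35.8 and 50.5 FPKM in EtOH DMSO and 93.2 and 76.1 in 4-OHT DMSO (log2 fold change 0.97, adjusted p = 0.0113). Ifngr2, its partner, measured 43.0 and 40.2 against 27.0 and 28.8 FPKM (log2 fold change -0.56, adjusted p = 0.00455). The 2 chains of this receptor thus moved in opposite directions. Il22ra1 measured 1.51 and 2.27 against 3.54 and 3.10 FPKM (log2 fold change 0.59, adjusted p = 0.0331), and Il20rb, at a mean of 0.463 FPKM, was not tested. Of the 3 receptor kinases, 1 was called lower and 2 were not called, beside 16.7% lower and 41.2% called over all genes. Jak2 measured 19.7 and 21.0 against 14.2 and 16.2 FPKM (log2 fold change -0.40, adjusted p = 0.0219), and Jak1 (mean 11.9 FPKM) and Tyk2 (5.25 FPKM) had log2 fold changes of -0.08 and 0.16. Without single libraries the calls of Il22ra1 and Jak2 ended, and that of Il22ra1 also ended with median centring (adjusted p = 0.0596), equal upper quartiles (0.0677) and the replicate number as a block (0.0581). With a library left out, the adjusted p of Il22ra1 was 0.0554 to 0.102 without any 1 of EtOH DMSO 1, EtOH Nec-1 1, EtOH Nec-1 2, 4-OHT DMSO 1 and 4-OHT DMSO 2. For Jak2 it was 0.0536 to 0.0822 without any 1 of EtOH DMSO 1, EtOH DMSO 2, EtOH Nec-1 1, EtOH Nec-1 2 and 4-OHT DMSO 1.

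The STAT genes Stat6, Stat3 and Stat5b, with means of 30.7, 6.17 and 2.73 FPKM, had log2 fold changes of -0.05, -0.12 and 0.14, that of Stat5b becoming -0.02 with median centring, and none of these 3 was called. Of 7 other IRFs and IRF2-binding partners, 6 were tested and 2, Irf3 and Irf5, were called higher and none lower, beside 24.5% and 16.7% over all genes. With median centring or equal upper quartiles, 1 was called higher and 2, Irf2bp2 and Irf8, lower, and with the replicate number as a block Irf8 was called lower as well. Irf8 measured 6.92 and 7.19 FPKM in EtOH DMSO and 3.37 and 5.11 with 4-OHT DMSO, a log2 fold change of -0.64 that did not pass the test as reported. Irf5 measured 0.325 and 0.558 FPKM in EtOH DMSO and 1.85 and 2.75 in 4-OHT DMSO, and it passed the filter only through the latter, so that 1 of 5 was called with at least 1 FPKM required in every library. Irf3, which acts upstream of interferon production, measured 10.6 and 10.2 FPKM in EtOH DMSO and 12.9 and 14.6 in 4-OHT DMSO (log2 fold change 0.37, adjusted p = 0.026). Irf2bp2 and Irf2bp1, with means of 38.2 and 11.0 FPKM, had log2 fold changes of -0.29 and 0.25. The call of Irf3 ended with median centring (adjusted p = 0.126), with equal upper quartiles (0.099) and without single libraries, where the adjusted p was 0.0633 to 0.0897 without any 1 of EtOH DMSO 1, EtOH DMSO 2, EtOH Nec-1 1, EtOH Nec-1 2 and 4-OHT DMSO 2. The adjusted p of Irf2bp2 was 0.0628, and with median centring or equal upper quartiles it was called lower, at log2 fold changes of -0.44 and -0.45.

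Of 8 negative regulators, 7 were tested, with 2 called higher and 1 lower, near the 41.2% called over all genes. With median centring or equal upper quartiles 1 was called higher and 2, Ptpn2 and Socs3, lower, and without 4-OHT DMSO 2 there were 4 calls, 2 in each direction, Socs3 again among the lower. Usp18, which binds Ifnar2 and damps its signal, measured 0.018 FPKM and 0 in EtOH DMSO, 14.4 and 20.7 with 4-OHT DMSO, and 1.22 with 4-OHT Nec-1 (log2 fold change 4.18, adjusted p = 0.000321). It passed the filter only through the libraries labelled 4-OHT and so had to differ. Ptpn2 measured 21.2 and 18.4 against 13.1 and 14.3 FPKM (log2 fold change -0.50, adjusted p = 0.0128), Ptpn11 7.94 and 9.37 against 13.4 and 11.4 FPKM (log2 fold change 0.47, adjusted p = 0.0271). The call of Ptpn11 ended with median centring (adjusted p = 0.0682), equal upper quartiles (0.0934) and the replicate number as a block (0.0504). It also ended without single libraries, at an adjusted p of 0.0617 to 0.102 without any 1 of EtOH DMSO 1, EtOH Nec-1 1, EtOH Nec-1 2 and 4-OHT DMSO 1. Ptpn6, with a mean of 6.98 FPKM, had a log2 fold change of -0.01.

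Of 22 target genes of ISGF3 and the IRFs, 20 were tested and 20 were called higher in the libraries labelled 4-OHT DMSO, beside 24.5% of all genes, with a median log2 fold change of 3.73 against 0.08 over all genes. Ifit2 and Herc6 were below the filter. This list, like the others, was chosen with earlier results of these data known, so its share of calls is a description and not a test. Of the 22, 7 had at least 1 FPKM in both EtOH DMSO libraries, and those that passed the filter through the 4-OHT libraries alone had to differ. With at least 1 FPKM required in every library, 6 were tested and 6 called higher, with a median log2 fold change of 2.94 over these 6. Isg15, a ubiquitin-like modifier, measured 1.15 and 0.578 FPKM in EtOH DMSO, 331 and 469 with 4-OHT DMSO, and 27.3 with 4-OHT Nec-1. Bst2, which tethers budding virus, measured 18.5 and 19.5, 243 and 282, and 39.6 FPKM in the same order. Oasl1 measured 13.2 and 16.3, 57.1 and 85.5, and 35.7 FPKM, and Oas1a 3.71 and 3.81, 94.5 and 97.2, and 21.0 FPKM. Each of these 4 was far higher in the libraries labelled 4-OHT DMSO, and their 4-OHT Nec-1 level lay between. In the 4-OHT Nec-1 library 20 of 21 targets compared were below both 4-OHT DMSO libraries, 18 of them by at least 1 log2 unit, beside 50.6% and 1.21% of all genes compared, but those under 1 FPKM in the 4-OHT Nec-1 library were compared only because of their 4-OHT DMSO level. Against EtOH Nec-1, 12 of 12 compared were above both libraries, 10 of them by at least 1 log2 unit, beside 49.9% and 4.24% of all genes compared. Of these 12, 5 were below 1 FPKM in both EtOH Nec-1 libraries, were compared only because of their 4-OHT Nec-1 level and so had to lie above. The 6 with at least 1 FPKM in both EtOH Nec-1 libraries were all above both, 4 of them by at least 1 log2 unit.

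Of 8 genes known as Irf1 targets, 6 were tested and 5, the 4 below and Gbp3, were called higher in the libraries labelled 4-OHT DMSO, beside 24.5% of all genes. Cxcl10 and Gbp3 passed the filter only through the libraries labelled 4-OHT and had to differ, and with at least 1 FPKM required in every library 3 were tested and 3 called higher. Cd274 was not called. Psmb8, a subunit of the immunoproteasome, measured 3.44 and 2.46 FPKM in EtOH DMSO, 8.49 and 14.1 with 4-OHT DMSO, and 2.88 with 4-OHT Nec-1. Tap1, which carries peptides to class I molecules, measured 1.75 and 2.68, 8.65 and 12.4, and 3.17 FPKM, Psmb9 4.14 and 5.14, 6.37 and 9.38, and 3.31 FPKM, and the chemokine Cxcl10 0.0445 and 0.0863, 6.45 and 6.64, and 1.32 FPKM. All 5 Irf1 targets compared in the 4-OHT Nec-1 library were below both 4-OHT DMSO libraries, 4 of them by at least 1 log2 unit, beside 50.6% and 1.21% of all genes compared. Gbp3, in both counts, was below 1 FPKM in the 4-OHT Nec-1 library, was compared only because of its 4-OHT DMSO level and so had to lie below. Against EtOH Nec-1, 1 of 3 compared was above both libraries and 1 below both, near the 49.9% and 38.8% of all genes compared, with a median log2 difference of 0.01. The calls of Psmb9 and Psmb8 ended without single libraries, and that of Psmb9 also with median centring (adjusted p = 0.0787) and equal upper quartiles (0.0714). For Psmb9, with an adjusted p of 0.0423, it was 0.0768 to 0.174 without any 1 of EtOH DMSO 1, EtOH DMSO 2, EtOH Nec-1 1, EtOH Nec-1 2 and 4-OHT DMSO 2. For Psmb8, with an adjusted p of 0.00826, it was 0.0511 without EtOH DMSO 2. Without EtOH DMSO 2 the list thus held 3 called genes, and without EtOH DMSO 1 it held 4. In EtOH Nec-1 against EtOH DMSO, limma called none of the genes in these lists, and 2, Irf2bp2 and Oas1a, had an unadjusted p under 0.05.

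**Figure D4:**
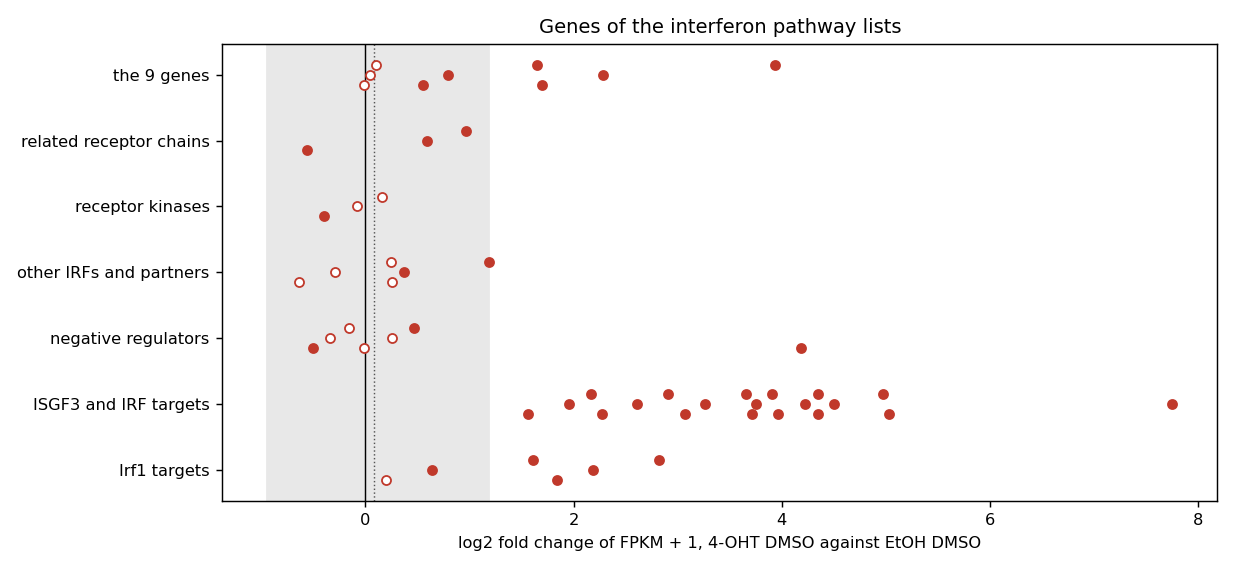
Log2 fold change of FPKM + 1 (horizontal axis) for 4-OHT DMSO against EtOH DMSO, for the 9 genes and for the tested genes of 6 pathway lists (vertical axis; points are spread for visibility). Filled circles had an adjusted p under 0.05, the grey band runs from the 5th to the 95th percentile of all 12702 genes, and the dotted line is their median of 0.08. The ISGF3 and IRF targets lie right of the band, which ends at 1.19, while receptor kinases and related receptor chains lie within it.

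For each of the 9 genes, up to 3 genes with the most similar pattern were found among 12683 tested genes with a symbol, the 9 genes themselves not included, by Pearson correlation of log2(FPKM + 1) over the 7 libraries. These correlations are descriptions, and the libraries fall into groups that set them. Irf7 was closest to H2-D1 (r = 0.999), Ddx60 (0.999) and Parp9 (0.998), and Irf1 to Ifit1 (0.997), H2-D1 (0.997) and Slc25a22 (0.997). Genes close to Irf9 were Alg1 and Anxa4 (0.999 each), whose levels, like its own, were about as high in 4-OHT Nec-1 as in 4-OHT DMSO. Anxa4, for example, measured 275 and 286 FPKM with 4-OHT DMSO, and 287 with 4-OHT Nec-1. Stat2 was closest to Sema4b (0.998), Hk2 (0.998) and Pmpca (0.997). Of the receptors, Ifnlr1 was closest to Trip11 (0.995), Rasa2 (0.994) and Gm22395 (0.994), and Ifnar2 to Gm9797 (0.994), Snx16 (0.988) and Gm21378 (0.987). Ifnar1 was closest to Scamp4 (0.962), Mir7091 (0.961) and Azin1 (0.957), Il10rb to Fuom (0.957), Sdhaf1 (0.954) and Cenps (0.953), and Irf2 to Tmem250-ps (0.981), Eml2 (0.977) and Gm47071 (0.976). Among the 9 genes themselves, Irf1 and Irf7 were the most alike pair (0.999). Irf9 correlated with Stat2 at 0.934, with Irf1 at 0.914 and with Irf7 at 0.899.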

How the data were processed

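The deposited values were FPKM that the authors computed from RNA-seq (Illumina sequencing, NEBNext Ultra RNA libraries); the submitters' notes name HISAT2 2.1.0, StringTie 1.3.3b and the build mm10, and annotation, filters and strand setting are not given in the sources used here. The 12702 genes that reached 1 FPKM in 2 or more of the 7 libraries were tested on log2(FPKM + 1) with limma 3.58.1 (R 4.3.3), a mean for each of 4 groups, a trended prior, 3 residual degrees of freedom and Benjamini-Hochberg adjustment over all tested genes at 0.05. A test for counts had been allowed for and was not used, since the values are FPKM. Comparisons with the single 4-OHT Nec-1 library used genes whose mean reached 1 FPKM and had no test; a gene was counted when it lay outside both libraries, or at least 1 log2 unit outside both. The fit was tested on 20 simulated draws of independent normal values, in which 200 of 12702 genes changed by 1 or 2 log2 units. It found 100% of the changed genes, and 4.01% of its calls were false. In the real 4-OHT DMSO against EtOH DMSO comparison 41.2% of genes were called, so this setting does not show how the fit performs on these data. Tables were made with Python 3.11.15, numpy 2.4.6 and pandas 2.3.3, and plots with matplotlib 3.10.9. Counts behind the FPKM were not used here, so the precision of a single value is unknown. Alternatives changed the trend, scaling, filter, pseudocount, libraries in the fit, replicate block and call rule. Named genes were the 9 genes, up to 4 genes with the highest mean FPKM in each pathway list, other genes needed to state a result, and up to 3 genes closest to each of the 9; Ifnb1, Ifnl2, Ifnl3, Irf5, Irf8, Socs3, Gbp3, Cd274, Ifit2 and Herc6 were named after their values were seen. The members and lists were chosen with earlier results of these data known. Some genes of the lists are not reported here, and the counts of the lists leave them out. The 2 CUT&Tag samples of the series were not analysed here.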

Additional observations from a re-analysis of the deposited data

Results flagged for a closer look

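Among 33 named genes, 6 moved one way with an agent in all libraries of one background and the other way in all libraries of the other, on the log2(FPKM + 1) scale. The share was 18.2%, beside 12.6% (1595 of 12702) over all tested genes, so such a pattern is common here and nothing particular to these genes is read from it. In each case the 4-OHT Nec-1 group was 1 library, and the difference between the effects was not tested.

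The effect of Nec-1 differed in sign between libraries labelled 4-OHT and EtOH libraries for 5 genes. For Ifnar2 it was -0.27 with 4-OHT and 0.18 with EtOH, a difference of -0.45. Irf9 had 0.10 and -0.25, a difference of 0.35. For Irf2bp2 the values were 0.02 and -0.51, a difference of 0.53. Usp18 had -3.04 and 0.12, a difference of -3.16. Its EtOH libraries were at or below 0.178 FPKM and it passed the filter only through libraries labelled 4-OHT, so its value with EtOH lies near the floor and is not read as an effect. For Cxcl10 they were -1.70 and 0.10, a difference of -1.80. The same limit holds for it, with EtOH libraries at or below 0.16 FPKM and the filter passed only through libraries labelled 4-OHT. These 5 differences were not tested.

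The effect of 4-OHT differed in sign with and without Nec-1 for 2 genes. For Irf2bp2 it was 0.25 under Nec-1 and -0.29 without, a difference of 0.53. Psmb9 had -0.41 under Nec-1 and 0.64 without, a difference of -1.05. These differences were not tested either. The 2 differences of Irf2bp2 are the same 4 group means taken in another order.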

How the results depend on the processing

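Of 96 recomputed counts of the comparisons, 81 stayed within 1.5 times the reported count and 15 did not. Of 1041 other recomputed values, 899 kept their direction and side of the threshold or moved by less than the spread, 62 lost the call, 2 gained it, 46 moved and 32 changed sign. Irf7, Stat2, Irf1 and Irf9 were called higher in the libraries labelled 4-OHT DMSO in all 17 alternatives, with limma adjusted p of at most 0.0066, 0.0175, 0.00826 and 0.00965. Ifnar2 lost its call in 1, a rule that replaces the adjusted p by an unadjusted p under 0.05 and also asks for 1 log2 unit, and Ifnlr1 in 10.

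With that rule, 1364 genes were called in 4-OHT DMSO against EtOH DMSO (879 higher, 485 lower). In EtOH Nec-1 against EtOH DMSO, the calls were 43 with equal upper quartiles, 8 with no filter on low values, 79 with only the 4 libraries compared and 90 with that rule, which changes the p and the fold at once. Leaving out single libraries gave 9 to 75. In 4-OHT Nec-1 against 4-OHT DMSO, 378 genes lay at least 1 log2 unit outside both libraries at a pseudocount of 0.1, and 421 to 772 did so with 1 library left out, where a single library has to be passed. Against EtOH Nec-1, 1132 did so at a pseudocount of 0.1. Apart from this last construction, the cause was not tested.

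Changes of sign were among small values. In 4-OHT DMSO against EtOH DMSO, median centring gave -0.12 for Ifnar1, -0.06 for Il10rb and -0.02 for Stat5b, and equal upper quartiles gave -0.10 for Ifnar1 and -0.05 for Il10rb. Leaving out single libraries gave ranges that crossed 0: -0.18 (without 4-OHT DMSO 2) to 0.26 for Ifnar1, -0.02 (without EtOH DMSO 2) to 0.21 for Il10rb, -0.02 to 0.01 (without 4-OHT DMSO 1) for Irf2, -0.02 (without EtOH DMSO 1) to 0.35 for Tyk2, -0.14 to 0.05 (without EtOH DMSO 2) for Stat6 and -0.12 to 0.09 (without EtOH DMSO 1) for Ptpn6. Ifnar1 was also below 0, at -0.13, without EtOH DMSO 1, and Ptpn6 above 0, at 0.06, without 4-OHT DMSO 1. In EtOH Nec-1 against EtOH DMSO, median centring gave 0.09 for Ifnlr1, 0.03 for Irf1 and 0.04 for Irf7, and equal upper quartiles gave 0.08, 0.01 and 0.01. The ranges with 1 library left out were -0.08 (without EtOH DMSO 1) to 0.27 for Ifnar1, -0.18 to 0.16 (without EtOH DMSO 2) for Ifnlr1, -0.64 to 0.14 (without EtOH DMSO 2) for Stat2 and -0.19 to 0.07 (without EtOH Nec-1 2) for Irf7, with Ifnlr1 also at 0.07 without EtOH Nec-1 2. In 4-OHT Nec-1 against 4-OHT DMSO, median centring gave 0.09 for Ifnlr1 and 0.06 for Irf2, equal upper quartiles gave 0.08 and 0.06, and Ifnar1 ranged from -0.05 (without 4-OHT DMSO 1) to 0.39. Against EtOH Nec-1, Ifnar1 was at -0.02 with median centring and 0.00 with equal upper quartiles, and Il10rb ranged from -0.10 to 0.09 (without EtOH Nec-1 2). The cause was not tested.

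The labels link libraries of different groups only by a number. Deviations from the group means correlated at 0.006, -0.040 and -0.012 between the 3 pairs of groups. No shared deviation was thus visible across genes, but this cannot tell whether libraries of the same number were paired. With the replicate block limma called 4697 genes (2788 higher, 1909 lower) and 6 of the 9 genes in 4-OHT DMSO against EtOH DMSO, and 19 genes and 0 of the 9 in EtOH Nec-1 against EtOH DMSO. It changed no call of the 9 genes. Among the other named genes it ended those of Il22ra1 (adjusted p = 0.0581) and Ptpn11 (0.0504), and Irf8 became called lower. For the 2 comparisons that use the 4-OHT Nec-1 group, which has 1 library, no paired analysis was made.

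Leaving out a library leaves 2 residual degrees of freedom, or 3 without 4-OHT Nec-1, and a lone sample is then assumed to vary like the other groups. Depth was not used here as counts, so values near 1 FPKM, such as those of Irf9 and Ifnar2 in EtOH libraries, have an unknown counting error.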
